A study of Mus musculus with 6 samples.

Results

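Galanin (Gal), Sv2b, Lrrc4, Amph, Ank2, Bex1, Bcl11a and Akap12 are genes with known roles in neurons or at synapses, and their transcripts differed in level between wildtype and Cdx2P:Nr6a1 mouse tailbuds. They are 8 of the 54134 genes in the deposited count table. The choice rested on the values of the same libraries that are described here, so the levels and fold changes of these 8 genes are given as a description, with no p-value. All 8 were among the 12733 genes that passed the filter on low counts, which required a count above 10 and a CPM (its count scaled to the total count of the library) above 2 in at least 2 libraries. Gal passed only through the Cdx2P:Nr6a1 libraries, and so had to be higher there to be kept.

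Neurons release signals from small membrane vesicles that fuse at the synapse and are then retrieved by endocytosis, while adhesion proteins and a submembrane skeleton hold the synaptic and axonal membranes in place. The tailbud is the growth zone at the caudal end of the embryo, where progenitors shared by the spinal cord and the paraxial mesoderm persist while the tail forms. Genes used by mature neurons can be transcribed at low level in such progenitors, well before synapses exist.

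PolyA RNA was measured in tailbuds of E10.5 embryos on a C57BL/6 background, taking the tissue caudal to the last somite. The 4 wildtype libraries came from transgene-negative embryos. The 2 Cdx2P:Nr6a1 libraries came from transient transgenic embryos made by pronuclear injection, in which the Cdx2 promoter drives the coding sequence of the long isoform of Nr6a1, an orphan nuclear receptor. Each transgenic embryo is its own founder, with its own insertion of the transgene, and 1 library was made from each embryo. Both groups carry the endogenous Nr6a1 gene.

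Total counts ranged from 44073460 to 67183802 per library. Nr6a1 itself read 3.91, 5.18, 5.53 and 6.89 CPM in wildtype replicates 1 to 4, and 23.4 and 33.8 CPM in Cdx2P:Nr6a1 replicates 1 and 2. It was higher in the transgenic group, as labelled (log2 fold change 2.41 with a standard error, SE, of 0.20, adjusted p = 0.00132 by edgeR's quasi-likelihood test), and its counts pool transcripts of the transgene and of the endogenous gene. The tailbud genes T and Tbx6 were high in both groups, at mean levels of 1095 and 249 CPM in wildtype and 972 and 209 CPM in Cdx2P:Nr6a1 tailbuds. Xist, the RNA of the inactive X chromosome, split the libraries across the groups. It was between 854 and 1015 CPM in wildtype replicates 1, 2 and 4 and Cdx2P:Nr6a1 replicate 1. In wildtype replicate 3 and Cdx2P:Nr6a1 replicate 2 it was 1.77 and 0.953 CPM, and Y-linked genes were detected instead.

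The start regions of Gal, Lrrc4 and Sv2b are printed because these 3 genes changed the most, 2 upwards and 1 downwards. They are RefSeq promoters on GRCm38.p6, the mouse build of the counts, running 5′ to 3′ from 250 bases before the start site to 50 bases after it, with each CG dinucleotide in capitals.
Gal, chr19:3414495-3414794, reverse strand: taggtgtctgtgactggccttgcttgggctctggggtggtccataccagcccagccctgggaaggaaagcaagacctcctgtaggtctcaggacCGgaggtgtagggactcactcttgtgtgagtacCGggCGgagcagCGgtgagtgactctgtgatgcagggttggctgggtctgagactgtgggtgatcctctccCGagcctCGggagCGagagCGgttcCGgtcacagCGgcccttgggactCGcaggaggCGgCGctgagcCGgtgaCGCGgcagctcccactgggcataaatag
Lrrc4, chr6:28831698-28831997, reverse strand: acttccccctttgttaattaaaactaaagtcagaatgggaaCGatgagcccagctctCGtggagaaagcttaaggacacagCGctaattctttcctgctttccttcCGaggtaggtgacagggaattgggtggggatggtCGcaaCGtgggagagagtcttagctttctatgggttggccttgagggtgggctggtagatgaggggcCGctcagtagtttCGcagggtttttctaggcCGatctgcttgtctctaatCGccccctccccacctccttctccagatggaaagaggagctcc
Sv2b, chr7:75309213-75309512, reverse strand: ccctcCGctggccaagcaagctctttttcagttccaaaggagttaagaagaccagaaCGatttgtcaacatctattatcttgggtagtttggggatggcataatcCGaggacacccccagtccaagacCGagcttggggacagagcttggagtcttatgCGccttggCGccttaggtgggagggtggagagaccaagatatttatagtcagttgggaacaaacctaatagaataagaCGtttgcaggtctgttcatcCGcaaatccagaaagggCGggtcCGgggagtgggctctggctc

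The Gal promoter held 16 CG dinucleotides at a GC content of 63.3%. The printed ones of Lrrc4 and Sv2b held 10 each, at 52.7% and 51.3%. The median over 32851 mouse promoters was 7 CG dinucleotides and 52.7% GC. The printed Lrrc4 and Sv2b promoters were thus near the middle, and the Gal promoter was richer. Sv2b has further RefSeq promoters that are not printed, with 9, 2 and 0 CG dinucleotides at 47.3%, 36.3% and 35.3% GC. In all, 7 of the 8 genes matched, with 13 promoters between them, and the remaining gene is Akap12. The letters AGGTCA, the core site bound by many nuclear receptors, were searched on both strands and were found in 0 of the 13 promoters and in 16.3% of all promoters. The longer TCAAGGTCA, which contains that core site, was found in 0 of the 13 and in 0.423% of all. The direct repeat of the core site with no spacer, the form that Nr6a1 is known to bind, occurred in 0.00609% of all promoters and in 0 of the 13. TTCAGCACC, the left arm of the element bound by the neuronal gene repressor Rest, occurred in 0 of the 13 and in 0.371% of all. These counts state only that the letters are not in these windows.

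Gal encodes the precursor of galanin, a secreted neuropeptide. It lies on chromosome 19 from 3409919 to 3414472 on the reverse strand, and its start site in RefSeq is 72 bases upstream of the 5′ end used for the counts. Gal counts were 23, 40, 29 and 11 reads in wildtype replicates 1 to 4, and 94 and 170 reads in Cdx2P:Nr6a1 replicates 1 and 2. As CPM these were 0.468, 0.716, 0.519 and 0.245 CPM in wildtype, and 2.13 and 2.53 CPM in Cdx2P:Nr6a1 tailbuds. The lower transgenic value was well above the highest wildtype value, and the wildtype libraries themselves spread widely. The group means were 0.487 ± 0.194 CPM (SD, n = 4) and 2.33 ± 0.281 CPM (SD, n = 2), for a log2 fold change of 2.23 (SE 0.32), the largest of the 8 genes. Few reads stand behind the wildtype values, and the coefficient of variation in wildtype was 39.8%, higher than in 99.3% of the genes tested. The galanin receptors Galr1, Galr2 and Galr3 stayed under the filter, at mean wildtype levels of 0.205, 0.778 and 0.117 CPM, and the related peptide gene Galp had 0 counts in every library.

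Lrrc4 encodes netrin-G ligand 2, a postsynaptic adhesion protein with leucine-rich repeats. It lies on chromosome 6 from 28661831 to 28831747 on the reverse strand. Its level was 2.28, 2.70, 2.43 and 1.91 CPM in wildtype replicates 1 to 4, and 6.65 and 10.1 CPM in Cdx2P:Nr6a1 replicates 1 and 2. The groups did not overlap, and the transgenic libraries were further apart from each other than the wildtype libraries were. The means were 2.33 ± 0.330 CPM (SD, n = 4) and 8.36 ± 2.42 CPM (SD, n = 2), for a log2 fold change of 1.84 (SE 0.19). Cdx2P:Nr6a1 replicate 2, which also had the higher Nr6a1 level, was 2.11 above the wildtype mean on the log2 scale, and replicate 1 was 1.51 above it. With 2 transgenic libraries, whether Lrrc4 follows the Nr6a1 level was not tested. The paralogues Lrrc4b and Lrrc4c did not pass the filter. Lrrc4b read 0.401 ± 0.106 CPM (SD, n = 4) in wildtype and 0.755 ± 0.120 CPM (SD, n = 2) in Cdx2P:Nr6a1 tailbuds, and Lrrc4c was at or below 0.0893 CPM in each library.

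Sv2b encodes a glycoprotein of the synaptic vesicle membrane. It lies on chromosome 7 from 75114894 to 75309262 on the reverse strand. Its level was 59.0, 57.0, 59.7 and 57.5 CPM in wildtype replicates 1 to 4, and 38.1 and 32.5 CPM in Cdx2P:Nr6a1 replicates 1 and 2. Wildtype tailbuds hardly varied, and both transgenic tailbuds were clearly lower. The means were 58.3 ± 1.27 CPM (SD, n = 4) and 35.3 ± 3.97 CPM (SD, n = 2), for a log2 fold change of -0.73 (SE 0.07). The ratio of transgenic to wildtype was 0.605. Its paralogue Sv2a, 0.536 CPM per kilobase of exon in wildtype against 6.95 for Sv2b, was not called (log2 fold change 0.10, SE 0.16, adjusted p = 0.917 by edgeR's quasi-likelihood test), and Sv2c did not pass the filter. Per length, Sv2b was the most abundant of its family in wildtype tailbuds.

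Amph encodes amphiphysin, which joins clathrin, dynamin and curved membrane during vesicle endocytosis. Its locus is on chromosome 13, from 18948205 to 19150921 on the forward strand. Its level was 41.6, 46.0, 45.6 and 40.8 CPM in wildtype replicates 1 to 4, and 66.3 and 57.4 CPM in Cdx2P:Nr6a1 replicates 1 and 2. Here replicate 1 of the transgenic group was the higher one, and neither reached down into the wildtype range. The means were 43.5 ± 2.70 CPM (SD, n = 4) and 61.8 ± 6.27 CPM (SD, n = 2), for a log2 fold change of 0.50 (SE 0.07). The amphiphysin relatives Bin1, Bin2 and Bin3 overlapped between the groups and had no call, at log2 fold changes of 0.08, 0.01 and 0.13 (SE 0.055, 0.30 and 0.079, adjusted p = 0.735, 0.993 and 0.701 from edgeR). Per kilobase, Bin1 was the most abundant of the family in wildtype at 31.3 CPM, above Bin3 at 10.9 and Amph at 9.61.

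**Figure D1:**
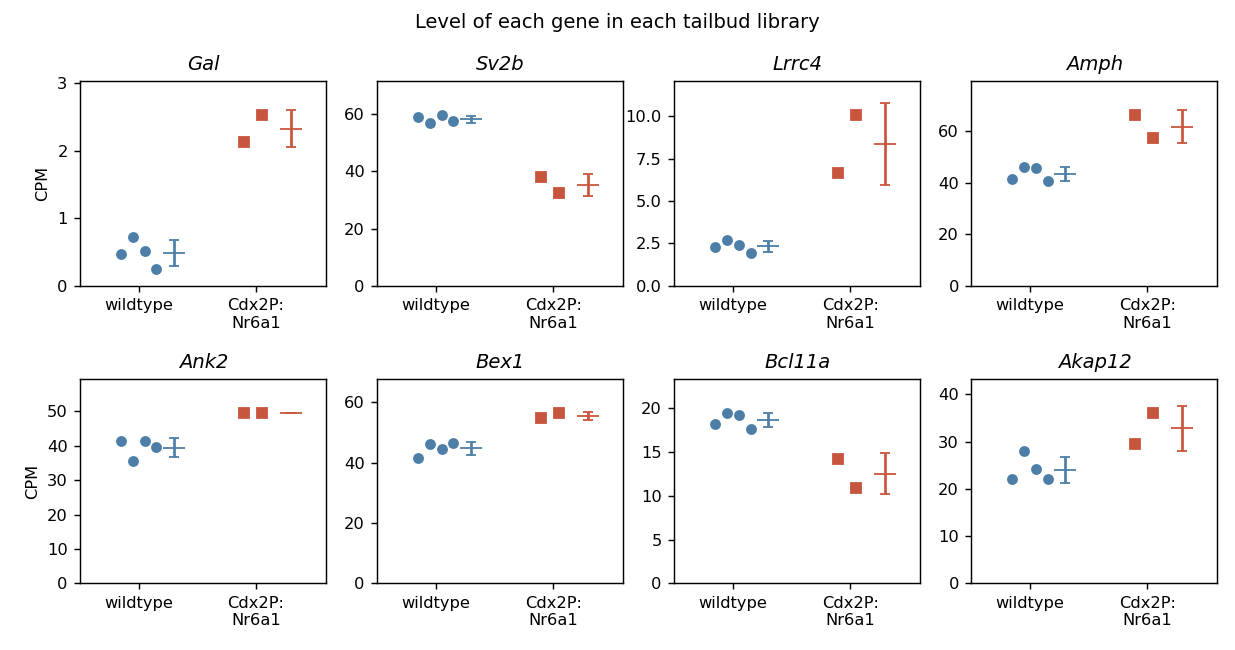
CPM of each of the 8 genes in every library, each panel on its own axis from 0. Circles are the 4 wildtype tailbuds, squares the 2 Cdx2P:Nr6a1 tailbuds, and the bars beside them mark the mean and SD. For all 8 genes the squares and circles do not overlap, with Sv2b and Bcl11a below wildtype and the other 6 above.

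Ank2 encodes ankyrin-B, an adaptor that ties channels, transporters and adhesion molecules to the spectrin skeleton. It spans 577739 bases on chromosome 3, from 126921612 to 127499350 on the reverse strand, with 35004 bases of exon. Its level was 41.4, 35.5, 41.4 and 39.7 CPM in wildtype replicates 1 to 4, and 49.6 and 49.5 CPM in Cdx2P:Nr6a1 replicates 1 and 2. Both transgenic libraries gave nearly the same value, above the whole wildtype range. The means were 39.5 ± 2.79 CPM (SD, n = 4) and 49.5 ± 0.0813 CPM (SD, n = 2), for a log2 fold change of 0.32 (SE 0.07). Ank3, which encodes ankyrin-G of the axon initial segment, was not called (log2 fold change 0.03, SE 0.05, adjusted p = 0.933 from edgeR). Ank1, the erythrocyte ankyrin, was not called either (log2 fold change -0.31, SE 0.34, adjusted p = 0.880 from edgeR), although the edgeR fit without a filter did call it, with an adjusted p of 0.000389, the lowest of 13 alternatives. Its level ranged from 34.7 to 96.0 CPM among wildtype tailbuds, and the summed level of erythroid genes in the same libraries ranged from 8544 to 20789 CPM.

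Bex1 encodes a small brain-expressed X-linked protein linked to nerve growth factor receptor signalling. Its locus is on chromosome X, from 136213972 to 136215513 on the reverse strand. Its level was 41.6, 46.1, 44.6 and 46.6 CPM in wildtype replicates 1 to 4, and 54.6 and 56.5 CPM in Cdx2P:Nr6a1 replicates 1 and 2. The transgenic libraries were higher than each wildtype library by a small margin. The means were 44.7 ± 2.25 CPM (SD, n = 4) and 55.5 ± 1.32 CPM (SD, n = 2), for a log2 fold change of 0.31 (SE 0.06), the smallest of the 8 genes.

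Because Bex1 is X-linked, it was also compared among libraries of like Xist level. Among the libraries with high Xist, wildtype values were 41.6 to 46.6 CPM against 54.6 CPM in the transgenic library. Between the pair with low Xist they were 44.6 and 56.5 CPM. The log2 ratios were 0.29 and 0.34, each with a single transgenic library and no test. Their direction was set by the choice of Bex1, whose transgenic libraries were both above each wildtype library. Bex1 counts are less certain than those of the other 7 genes. Of its 1186 exon bases, 223 (18.8%) are shared with Tceal7 on the other strand, and the use of strand in the counting is not given in the sources used here. Of the stretches of 75 bases in Bex1 transcripts, 26.0% occur in another gene too, and Bex4 alone holds 13.8%.

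Bex4 was near Bex1 in its change, at 25.3 ± 1.43 CPM (SD, n = 4) in wildtype and 31.6 ± 0.180 CPM (SD, n = 2) in Cdx2P:Nr6a1 tailbuds. It was not called (log2 fold change 0.32, SE 0.067, adjusted p = 0.0570 from edgeR, between 0.00965 and 0.305 over 13 alternatives). Neither Bex2 nor Bex3 was called, their log2 fold changes being 0.01 and 0.04 (adjusted p = 0.978 and 0.884 from edgeR). Bex3 was the most abundant of the family per kilobase in wildtype at 196 CPM, followed by Bex2 at 69.6, Bex1 at 37.7 and Bex4 at 30.2. How reads shared by Bex1 and Bex4 were assigned was not tested.

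Bcl11a encodes a zinc finger transcription factor that is active in neurons and blood cells and is part of some BAF chromatin remodelling complexes. It lies on chromosome 11 from 24078056 to 24174123 on the forward strand. Its level was 18.2, 19.4, 19.2 and 17.7 CPM in wildtype replicates 1 to 4, and 14.2 and 10.8 CPM in Cdx2P:Nr6a1 replicates 1 and 2. Both transgenic values fell under the wildtype range, and replicate 2 was the lower. The means were 18.6 ± 0.850 CPM (SD, n = 4) and 12.5 ± 2.38 CPM (SD, n = 2), for a log2 fold change of -0.58 (SE 0.12). Its paralogue Bcl11b was at 22.2 ± 0.929 CPM (SD, n = 4) in wildtype and 16.6 ± 1.85 CPM (SD, n = 2) in Cdx2P:Nr6a1 tailbuds, and the groups did not overlap. Bcl11b was not called (log2 fold change -0.43, SE 0.09, adjusted p = 0.0610 from edgeR, between 0.000666 and 0.272 over 13 alternatives).

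Akap12 encodes gravin, a scaffold that anchors protein kinases A and C at the membrane. Its locus is on chromosome 10, from 4266380 to 4359470 on the forward strand. Its level was 22.1, 27.9, 24.1 and 22.1 CPM in wildtype replicates 1 to 4, and 29.5 and 36.1 CPM in Cdx2P:Nr6a1 replicates 1 and 2. The lower transgenic library was only slightly above wildtype replicate 2, the highest of its group. The means were 24.1 ± 2.73 CPM (SD, n = 4) and 32.8 ± 4.68 CPM (SD, n = 2), for a log2 fold change of 0.44 (SE 0.11).

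**Figure D2:**
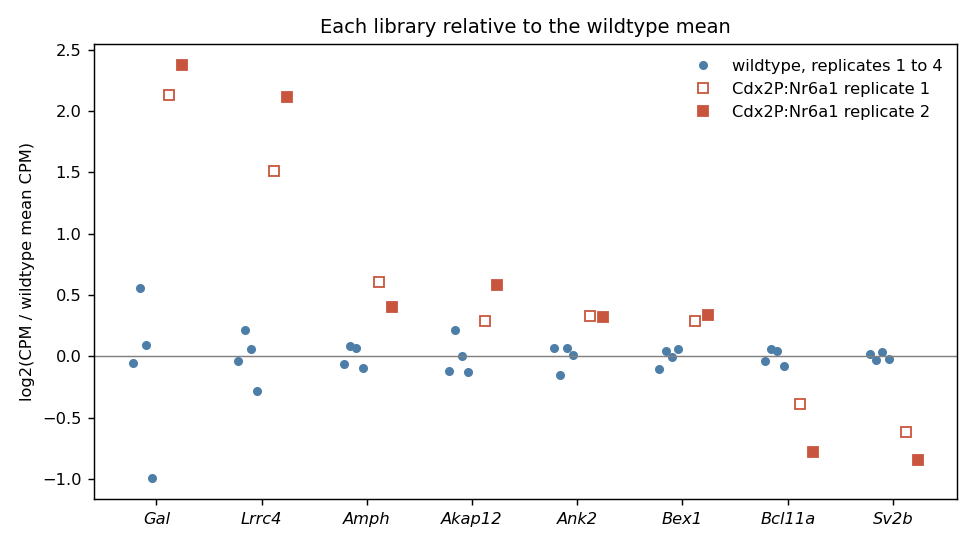
Level of each gene in each library as log2 of its CPM over the wildtype mean, with genes ordered by their change. Circles are wildtype tailbuds, open squares Cdx2P:Nr6a1 replicate 1 and filled squares replicate 2. Gal and Lrrc4 stand 1.51 to 2.38 above the wildtype mean, the other 4 higher genes 0.29 to 0.61 above it, and Bcl11a and Sv2b 0.39 to 0.84 below it.

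Of the 8 genes, 6 were higher and 2 lower in Cdx2P:Nr6a1 tailbuds. The quasi-likelihood test called 6 of the 8 at a false discovery rate under 0.05 (Gal, Lrrc4, Amph and Bex1 higher, Sv2b and Bcl11a lower), and Ank2 and Akap12 were not called. Nearest the threshold, Bcl11a was inside it and Ank2 outside. Over all genes tested, 1.59% were called, 0.785% higher and 0.809% lower. DESeq2, which called 509 genes in all, called all 8. Without wildtype replicate 2, 3 or 4 the quasi-likelihood test called 148, 149 and 134 genes in all. In each of these fits it called 4 of the 8, and Bex1 and Bcl11a were no longer called. All 8 genes had both transgenic libraries beyond the wildtype range in CPM, which was so for 18.6% of the genes tested. As the genes were picked on this contrast, nothing is read from these counts. In bulk tissue, fewer cells that express a gene and less RNA of it per cell cannot be told apart.

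The transgenic replicates did not differ from wildtype to the same extent. Replicate 2 was further from the wildtype mean for 6 genes, and replicate 1 for Amph and Ank2. The wider gaps were those of Lrrc4, Bcl11a and Akap12. For Bcl11a the log2 ratio to the wildtype mean was -0.39 in replicate 1 and -0.78 in replicate 2, and for Akap12 it was 0.29 and 0.58. For Ank2 and Bex1 the replicates were alike, at 0.33 and 0.32 for Ank2 and 0.29 and 0.34 for Bex1.

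Within each Xist class the 8 genes kept their direction. The choice of genes fixed this outcome, as both transgenic libraries lay beyond all wildtype libraries for each gene. Among the libraries with high Xist (3 wildtype and 1 transgenic) the log2 ratio was 2.16 for Gal, 1.53 for Lrrc4, 0.63 for Amph, 0.35 for Ank2 and 0.29 for Akap12, with -0.60 for Sv2b and -0.38 for Bcl11a. Between the pair with low Xist it was 2.29 for Gal, 2.05 for Lrrc4, 0.33 for Amph, 0.26 for Ank2 and 0.58 for Akap12, with -0.88 for Sv2b and -0.83 for Bcl11a. With a single transgenic library in each class, the class and the individual embryo cannot be told apart.

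Per kilobase of exon, the wildtype levels of the 8 genes ran in the order Bex1, Amph, Sv2b, Akap12, Bcl11a, Ank2, Gal and Lrrc4. Bex1 stood at 37.7 CPM per kilobase, higher than 88.8% of the genes tested. Amph at 9.61 and Sv2b at 6.95 were on either side of the median of 7.59 over the genes tested. Akap12 was at 3.72, Bcl11a at 1.41 and Ank2 at 1.13, whereas Gal at 0.684 and Lrrc4 at 0.583 were above only 5.51% and 4.15% of the genes tested. In Cdx2P:Nr6a1 tailbuds the order changed, with Gal at 3.27 and Lrrc4 at 2.09 CPM per kilobase, both above Ank2 at 1.41 and Bcl11a at 0.950.

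Among the paralogues of Sv2b, Lrrc4, Amph, Ank2, Bex1 and Bcl11a that passed the filter, edgeR's quasi-likelihood test called 0, whereas DESeq2 called Bex4 higher and Bcl11b lower and the edgeR fit without a filter called Ank1. Bex4 and Bcl11b were also the paralogues past the filter whose groups did not overlap, and both had an unadjusted p under 0.05 in edgeR.

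**Figure D3:**
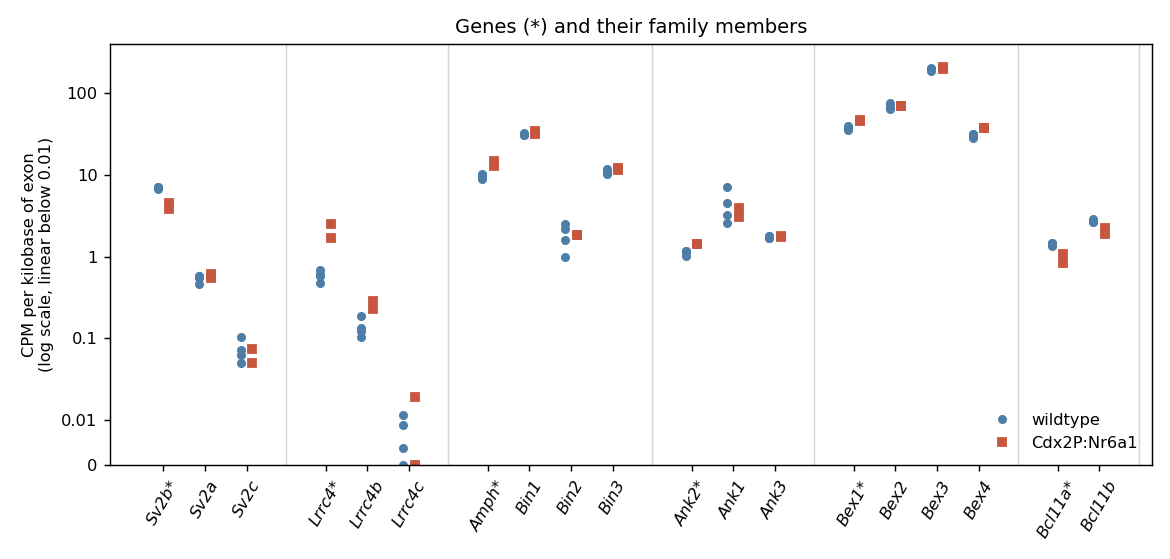
Level per kilobase of exon of 6 of the genes (asterisk) and their paralogues, in CPM on a log axis that is linear below 0.01. Circles are the 4 wildtype and squares the 2 Cdx2P:Nr6a1 tailbuds. Sv2b, Amph, Ank2 and Bcl11a separate by group, as do Lrrc4, Bex1 and their relatives Lrrc4b and Bex4 as well as Bcl11b, while the squares of Sv2a, Bin1, Bin3, Ank3, Bex2 and Bex3 touch or overlap the circles.

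The other genes of the pathways were read from lists that leave out the 8 genes. These lists were drawn up with earlier results of these data known. Over all pathway lists, 110 such genes were tested, of which 1 was called higher and 4 lower (4.55%, against 1.59% over all genes), with a median log2 fold change of -0.0046, compared with -0.00071 over all genes tested. At an unadjusted p under 0.05 there were 30 of the 110, and 1342 of all 12733 genes tested. All adjusted p-values of single genes in these lists come by edgeR's quasi-likelihood test and are adjusted over all 12733 genes.

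Of 24 other synaptic vesicle genes, 9 passed the filter and 0 were called by edgeR, with 3 at an unadjusted p under 0.05 and 1, Cplx2, called by DESeq2. Their median log2 fold change was 0.10. The largest changes were those of Cplx2, a complexin that regulates vesicle fusion, from 15.8 ± 1.02 to 23.0 ± 3.86 CPM (log2 fold change 0.54, adjusted p = 0.0525 from edgeR), and of Rab3a, a vesicle GTPase, with -0.39 (adjusted p = 0.360). Of the 23 other endocytosis genes tested, 0 were called by edgeR, 5 had an unadjusted p under 0.05 and DESeq2 called 2 (Pacsin1 higher and Sh3gl3 lower), with a median of -0.02. Snap91 and Pacsin1, both endocytic adaptors, had the largest log2 fold changes at 0.63 and 0.52 (adjusted p = 0.368 and 0.102 from edgeR).

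Among 11 other synaptic adhesion genes tested, Nrxn2 was the only one called by edgeR, and DESeq2 called it and 3 more higher. The median log2 fold change was 0.25. Nrxn2, a presynaptic neurexin, rose from 12.5 ± 1.10 CPM (SD, n = 4) to 19.2 ± 2.44 CPM (SD, n = 2), for a log2 fold change of 0.61 (SE 0.11, adjusted p = 0.0313 from edgeR). Its adjusted p lay between 8.44e-06 and 0.225 over 13 alternatives, and the call was lost without wildtype replicate 1, 3 or 4 or either transgenic library. Among 18 ankyrin and spectrin partners tested, Chl1 was the only one called by edgeR, with a median of -0.01. DESeq2 called Chl1 lower and Nfasc higher, the latter with a log2 fold change of 0.58 (adjusted p = 0.0822 from edgeR). Chl1, an adhesion molecule of the L1 family that binds ankyrin, fell from 8.80 ± 0.959 to 5.66 ± 0.149 CPM, for a log2 fold change of -0.64 (SE 0.12, adjusted p = 0.0377 from edgeR). Its adjusted p lay between 0.000521 and 0.247, and the call was lost without wildtype replicate 3 or 4 or either transgenic library.

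Among 10 other genes of the Bex and Tceal list tested, Ngfr was the only one called by edgeR, with a median of 0.10. Ngfr encodes the p75 neurotrophin receptor and was placed in the list because Bex1 acts in its signalling. It read 235, 191, 194 and 197 CPM in wildtype replicates 1 to 4, and 117 and 124 CPM in Cdx2P:Nr6a1 replicates 1 and 2. The transgenic libraries were far under the wildtype range. The log2 fold change was -0.77 (SE 0.09, adjusted p = 0.00499 from edgeR), and without Cdx2P:Nr6a1 replicate 1 the adjusted p was 0.0620, the highest of 13 alternatives, with 9.13e-33 the lowest.

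Among 19 other Bcl11 and BAF genes tested, 15 were lower and 4 higher, with a median of -0.07, and 2 were called, both lower. Smarca2, a BAF ATPase, fell from 48.3 ± 1.92 to 39.7 ± 0.335 CPM (log2 fold change -0.29, SE 0.05, adjusted p = 0.0329 from edgeR). Smarcd3, a subunit found in heart and neural BAF complexes, fell from 17.9 ± 1.08 to 12.6 ± 0.0268 CPM (log2 fold change -0.51, SE 0.09, adjusted p = 0.0309 from edgeR). Over 13 alternatives the adjusted p ranged from 0.00232 to 0.222 for Smarca2, whose call was lost without wildtype replicate 2, 3 or 4 or either transgenic library. For Smarcd3 it ranged from 5.27e-05 to 0.167, and the call was lost without wildtype replicate 2 or 4 or either transgenic library. Of 20 other A-kinase anchor and kinase genes tested, 0 were called by edgeR, 6 had an unadjusted p under 0.05 and DESeq2 called 1, with a median of -0.08. Prkar2b, a regulatory subunit of protein kinase A, had a log2 fold change of 0.29 (adjusted p = 0.198 from edgeR).

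**Figure D4:**
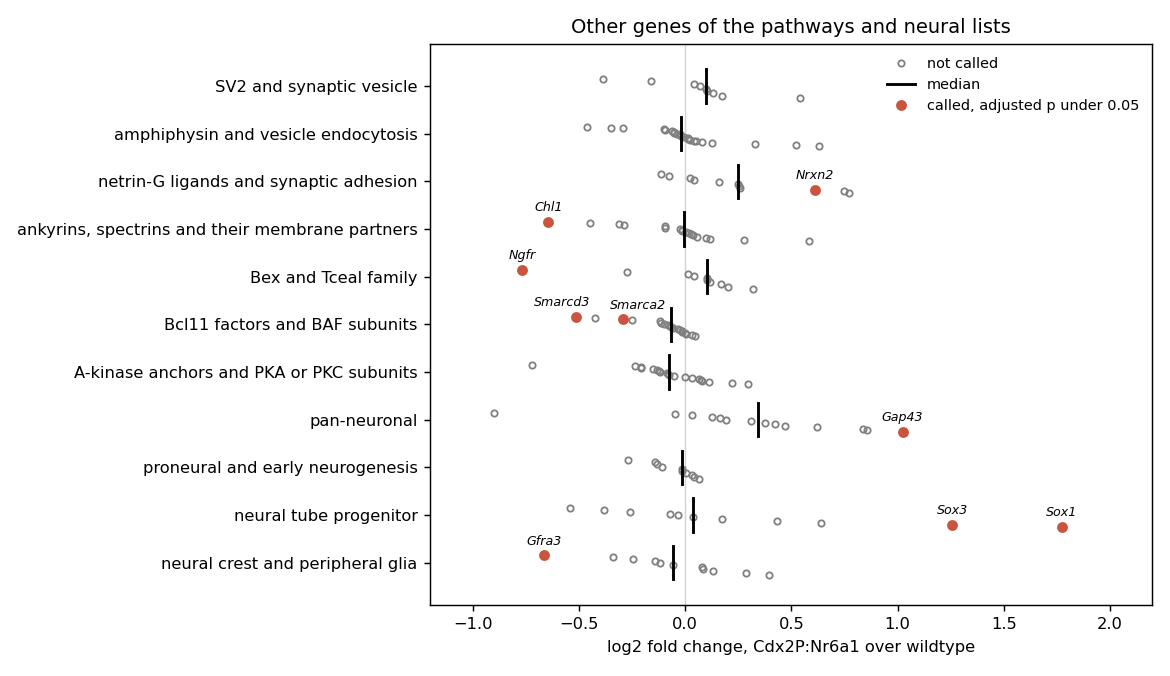
Log2 fold change of each gene tested in 7 pathway lists and 4 neural lists, without the 8 genes. Filled points are genes called at an adjusted p under 0.05, open points genes not called, and black lines list medians. The medians lie between -0.08 and 0.34, and the filled points are the 9 named genes, with Sox1 at 1.77 and Ngfr at -0.77 at the ends.

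Several transcripts that define differentiated neurons were near 0 in both groups, while others were detected. In wildtype and Cdx2P:Nr6a1 tailbuds the means were 0.373 and 0.341 CPM for Dcx, 0.315 and 0.281 CPM for Snap25, and 0.265 and 0.214 CPM for Syt1. The vesicular glutamate transporter gene Slc17a6 and the proneural gene Neurod4 had 0 counts in each library. The tubulin gene Tubb3 was at 6.42 and 11.5 CPM (adjusted p = 0.0738 from edgeR), the microtubule-associated protein gene Map2 at 14.3 and 19.3 CPM (adjusted p = 0.128) and the neurofilament gene Nefl at 4.33 and 7.93 CPM (adjusted p = 0.127), and none of these was called by edgeR. Of 30 pan-neuronal genes, 14 passed the filter and 16 did not. Of the 14, 12 were higher and 2 (Elavl3 and Elavl4) lower in Cdx2P:Nr6a1 tailbuds, and the median log2 fold change was 0.34. Their list summed to between 253 and 280 CPM in wildtype and to 319.5 and 319.6 CPM in the transgenic libraries, and its part in the changes of the 8 genes was not tested.

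In that list only Gap43 was called by edgeR, and 9 genes had an unadjusted p under 0.05. DESeq2 called 6 higher, Tubb3, Map2 and Nefl among them, and 1 lower, Elavl3. Elavl3 fell from 3.79 ± 0.742 CPM (SD, n = 4) to 2.06 ± 0.453 CPM (SD, n = 2). Its log2 fold change was -0.90 (SE 0.22), and both transgenic libraries were below the wildtype range. Gap43, a growth cone protein, rose from 7.28 ± 0.628 CPM (SD, n = 4) to 14.9 ± 2.68 CPM (SD, n = 2), for a log2 fold change of 1.02 (SE 0.12, adjusted p = 0.00651 from edgeR). Without Cdx2P:Nr6a1 replicate 2 its adjusted p was 0.0622, the highest of 13 alternatives, with 2.43e-13 the lowest. Of 21 proneural genes, 10 passed the filter and 0 were called by edgeR or by DESeq2, with 1 at an unadjusted p under 0.05 in edgeR and a median of -0.01. Ebf2 and Dll3 had the largest log2 fold changes of these, at -0.27 and -0.14 (adjusted p = 0.611 and 0.190 from edgeR). The other 11 proneural genes were not tested. Neurog2 among them had 3 to 12 reads per wildtype library, and 28 and 58 reads in Cdx2P:Nr6a1 replicates 1 and 2. The summed level of the proneural list overlapped between the groups, at 1281 to 1420 CPM in wildtype and 1299 and 1332 CPM in Cdx2P:Nr6a1 tailbuds.

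Among 11 neural tube progenitor genes tested, edgeR called Sox1 and Sox3, both higher, 7 had an unadjusted p under 0.05, and the median was 0.03. DESeq2 called Sox1 and Sox3 higher and also Fabp7 and Nes lower, whose log2 fold changes were -0.54 and -0.26 (adjusted p = 0.0914 and 0.187 from edgeR). Sox1 rose from 1.18 ± 0.217 to 4.02 ± 1.51 CPM (log2 fold change 1.77, SE 0.25, adjusted p = 0.0116 from edgeR). Like Gal, Sox1 passed the filter only through the Cdx2P:Nr6a1 libraries, and so had to be higher there to be tested. Sox3 rose from 5.32 ± 0.750 to 12.8 ± 2.89 CPM (log2 fold change 1.26, SE 0.16, adjusted p = 0.00714 from edgeR). The adjusted p of Sox3 was 0.0791 without Cdx2P:Nr6a1 replicate 2 and 3.21e-18 at its lowest. That of Sox1 lay between 2.88e-17 and 0.0317 over the 11 alternatives in which it was tested. The summed level of the list went the other way, at 806 to 874 CPM in wildtype and 763 to 795 CPM in transgenic tailbuds. Among 11 neural crest genes tested, Gfra3, a co-receptor for artemin, fell from 10.3 ± 0.737 to 6.51 ± 1.15 CPM (log2 fold change -0.66, SE 0.13, adjusted p = 0.0408 from edgeR) and was the only one called by either tool. The neural crest list summed to between 151 and 163 CPM in wildtype and between 164 and 166 CPM in transgenic tailbuds. The call of Gfra3 was lost whichever library was left out, with an adjusted p between 0.000147 and 0.235 over 13 alternatives. Over the 4 neural lists, 46 genes were tested, 3 were called higher and 1 lower (8.70%, against 1.59% over all genes), and 20 had an unadjusted p under 0.05, as did 1342 of all 12733 genes tested. Sox1 is among the 3, and the neural lists too were drawn up with earlier results of these data known.

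Lists for other cell types of the tailbud were summed in the same way. The gut endoderm list reached 460 to 573 CPM in wildtype and 580 to 670 CPM in Cdx2P:Nr6a1 tailbuds, and Krt18, an epithelial keratin in that list and in the notochord list, was called higher (log2 fold change 0.37, SE 0.06, adjusted p = 0.0264 from edgeR). The presomitic mesoderm and somite list was at 2050 to 2446 CPM and 1779 to 2128 CPM, and Cited1 and Aldh1a2 in it were called lower, with log2 fold changes of -0.48 and -1.25 (adjusted p = 0.0208 and 0.00693 from edgeR). The adjusted p of Krt18 lay between 4.47e-06 and 0.169 over 13 alternatives, that of Cited1 between 4.50e-13 and 0.172 and that of Aldh1a2 between 8.47e-21 and 0.0612. These 3 calls were lost without a transgenic library, Krt18 and Cited1 without either and Aldh1a2 without replicate 1, and that of Krt18 also without wildtype replicate 2 or 3. The sums of the presomitic mesoderm and somite list and of the surface ectoderm, notochord, endothelium, erythroid and macrophage lists overlapped between the groups. The part of any of these tissues in the levels of the 8 genes was not tested.

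The genes most like each of the 8 were found by the root mean square difference of their log2 CPM profiles over the 6 libraries, each centred on its wildtype mean. For Gal these were Urad and Padi2, at 0.389 and 0.416, where the median over the genes tested was 1.42. For Lrrc4 they were Gjb6 and Sox1, at 0.181 and 0.225 (median 1.08). The gene nearest to Sv2b was Nos1 at 0.0367, followed by Nfib at 0.0608 (median 0.438). Nos1 encodes the neuronal nitric oxide synthase and Nfib a nuclear factor I protein.

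The gene nearest to Amph was Hoxc8 at 0.0410, followed by Lemd1 at 0.0514 (median 0.312). Bcl11a was nearest to Hoxd12 and Hoxa13, at 0.0428 and 0.0553 (median 0.371). Hox genes set position along the body axis, and those named here came out of the search over all genes tested. Bex1 was nearest to Hmga2 and Bex4, at 0.0212 and 0.0265 (median 0.204), Ank2 to Fosl2 and Gm9512, at 0.0335 and 0.0457 (median 0.220), and Akap12 to Slco5a1 and Dclk2, at 0.0594 and 0.0617 (median 0.303). The genes share their libraries, and these likenesses are a description of 6 tailbuds.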

How the data were processed

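PolyA RNA was sequenced from 6 E10.5 mouse tailbuds (4 wildtype, 2 Cdx2P:Nr6a1), grouped by genotype label, 1 embryo per library. The authors aligned reads with STAR to mm10 and deposited raw counts per gene, without pooling or normalisation. The counting program and its use of strand are not given in the sources used here. A second deposited table holds the authors' own log2 fold changes, FDR, p-values, average expression and CPM for some of the genes and was not used. The count table holds 0 columns of other samples.

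CPM was computed from library totals. Genes with a count above 10 and CPM above 2 in at least 2 libraries were tested with edgeR 4.0.16 (TMM normalisation, quasi-likelihood test, no covariates, Benjamini-Hochberg FDR under 0.05) in R 4.3.3, with limma 3.58.1 loaded. DESeq2 1.42.0 was an alternative. Log2 fold changes and standard errors come from the edgeR fit, errors of CPM are SD, and the biological coefficient of variation was 9.40%. The fit was tested on simulated data before use. Library totals were 44073460 to 67183802 counts, and counting error weighs most on Gal, with 11 to 40 reads per wildtype library. The labels do not say whether embryos shared a litter, so p-values measure the spread between these embryos.

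The 8 genes and the gene lists were chosen with earlier results of these data known. The 13 alternatives set were DESeq2, the likelihood ratio test, RLE scaling, scaling by library size, filterByExpr, no filter, a replicate block and each library left out, and 1 (Xist level as a covariate) was chosen after seeing the data. Ranges of adjusted p leave out the block. Named genes are the 8, Nr6a1, their paralogues, list genes called (otherwise the 2 with the largest change), the 2 nearest profiles per gene and markers of other cell types. Sequences are RefSeq promoters, matched by symbol, and positions are the deposited exon coordinates on GRCm38, compared with GENCODE M21. One gene that this rule names is not reported here.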

Additional observations from a re-analysis of the deposited data

Results flagged for a closer look

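Ngfr, called lower in Cdx2P:Nr6a1 tailbuds, had 1 wildtype library apart from the rest. Wildtype replicate 1 read 235 CPM and the other 3 wildtype libraries 191 to 197 CPM, a gap of 0.873 of the whole wildtype range, which is past the 95% critical value of Dixon's test for 4 values. It was the 1 such gene of 35 looked at, and chance flags about 1 in 20 such groups. The cause was not tested. Both Cdx2P:Nr6a1 values were below the other 3 wildtype libraries too.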

How the results depend on the processing

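The fold changes of Gal, Sv2b, Lrrc4, Amph, Ank2, Bex1, Bcl11a and Akap12 kept their direction in every alternative that gave a value. There were 14 of these for each gene and 12 for Gal, which fails the filter when either Cdx2P:Nr6a1 library is left out. The genes were picked on this contrast, with both transgenic libraries beyond the wildtype range, so their direction could hardly turn. The log2 fold change ranged from 1.97 to 2.48 for Gal, 1.50 to 2.11 for Lrrc4, 0.40 to 0.60 for Amph, 0.28 to 0.58 for Akap12, 0.27 to 0.36 for Ank2, 0.27 to 0.34 for Bex1, -0.84 to -0.63 for Sv2b and -0.78 to -0.40 for Bcl11a. With the Xist covariate, Nrxn2, Chl1, Smarca2 and Smarcd3 were no longer called.

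The number of genes called (203) was 509 with DESeq2, 876 without a filter and 401 with the likelihood ratio test. Pathway genes called higher (1) were 8, 10 and 8 in these, pathway genes called lower (4) were 7 with DESeq2 and 11 without a filter, neural genes called higher (3) were 10, 13 and 7, and neural genes called lower (1) were 4, 4 and 3. The filterByExpr filter gave 5 neural genes higher, and the Xist covariate 0 pathway genes higher and 1 lower. With 1 library left out, 61 to 175 genes were called, 0 to 2 pathway genes higher, 0 to 4 lower, 1 to 3 neural genes higher and 0 to 1 lower. With 1 Cdx2P:Nr6a1 library left, that library was assumed to vary like wildtype. Neither scaling turned the sign of a list median. Among the lists of pathways and neural states, 3 medians turned sign in at least 1 alternative (endocytosis, ankyrin partners and neural tube). The cause of these shifts was not tested.

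With the replicate block, 442 genes were called, 4 pathway genes higher, 8 neural genes higher and 3 lower. The groups share only 2 replicate numbers, and deviations from the group means correlated at 0.317 for number 1 and -0.283 for number 2, so the numbers do not pair the samples.

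Depth limits Gal most, with 11 to 40 reads per wildtype library.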
